A study of Xenopus laevis x Xenopus muelleri with 8 samples.

Results

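The ubiquitin and ubiquitin-like conjugation genes described here were taken by name from a survey of ovary RNA in hybrid frogs. A probe set was included when the platform annotation gave it exactly 1 gene symbol and that symbol, without its homeolog ending, began with ube2, ube3, uba1 to uba7, usp, cul, uchl, otu, rnf, trim, sumo or senp, with a number following usp, cul, rnf and trim. The names, and no measured value, chose the members. The rule found 90 of 11485 probe sets, and these stood for 81 gene symbols. No probe set with a single symbol beginning with sumo was found, so that name gave 0 members. A further 4 probe sets listed several symbols of which at least 1 matched, and these were left out.

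The frogs were sexually mature crosses of a laevis female from the Cape of South Africa with a muelleri male from Swaziland, raised from eggs under a 12L:12D light cycle. By title 4 arrays held normal and 4 held sex-reversed ovary, with separate biological replicates, on an Affymetrix design of X. laevis probes. The labels name no agent, hormone or genetic means by which sex was reversed, and they give no age. Source names on all 8 arrays read testis where every other label read ovary, and for sex-reversed replicate 4 the source name also read normal. The title was followed for that array.

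Ubiquitin is a small protein that cells attach to other proteins. An E1 enzyme activates it, an E2 enzyme carries it, and an E3 ligase brings the E2 to the substrate. Many chains mark the substrate for the proteasome, and others direct membrane traffic, DNA repair or signalling. Deubiquitinases take the modifier off again, and NEDD8 and SUMO pass through similar cascades. In frog eggs this system is best known for destroying cyclin B and securin through the anaphase promoting complex, which lets the egg leave meiosis at fertilisation. Xenopus laevis is tetraploid, and its duplicated genes, called homeologs, carry the endings .L and .S.

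Each value is a log2 expression value made by RMA, and array medians lay between 6.0 and 6.04. Probes of different genes bind with different strength, so levels are compared within a probe set only. The following levels are only a rough check of the labelled tissue, since they set different probe sets side by side. Of the 11 probe sets of oocyte markers, such as the egg envelope gene zp2.L at 10.97 in normal and 10.87 in sex-reversed ovary, 10 lay above the upper quartile of every array. None of 6 spermatid and sperm probe sets did, and none of these lay below the lower quartile of every array. Their differences ran from −0.43 (spag6.L) to 0.42 (log2). The upper end was a probe set of crisp1.8.S whose groups did not overlap (unadjusted p = 0.0349, lowest adjusted p of the list 0.77 in limma), and its other probe set gave 0.28. Whether crisp1 genes mark sperm in these frogs was not tested. By average-linkage clustering over all probe sets the arrays split into a set of normal replicates 1 and 4 with sex-reversed replicates 3 and 4, and a set of the other 4. Correlations across probe sets were 0.954 to 0.972 within a set and 0.943 to 0.953 between sets. These sets are defined by the measured values and not by any label.

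Over the 90 probe sets, none differed between sex-reversed and normal ovary after adjustment. In limma 0 were higher and 0 lower at an adjusted p under 0.05, as were 0.0% of all probe sets tested, and the smallest adjusted p among members was 0.639. At an unadjusted p under 0.05, limma gave 7 members, 3 higher (rnf167.L, usp8.L and usp20.L) and 4 lower (rnf103.L, rnf103.S, ube2k.S and ube2g1.S) in sex-reversed ovary. That is 7.78% of members, against 6.38% of all probe sets, of which 3.21% were higher and 3.17% lower. The share lay near the background. Leaving out 1 array gave 4 (without sex-reversed replicate 2) to 8 (without sex-reversed replicate 4) members, against 5.11% to 6.93% of all probe sets. The groups did not overlap in 2 members, usp20.L above and rnf103.L below, or 2.22%, against 4.06% of all probe sets, of which 2.1% were higher and 1.96% lower. In whole ovary, fewer cells of a type and less RNA per cell cannot be told apart.

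The middle of the distribution stayed near 0. The median difference, sex-reversed minus normal, was 0.03 (log2) over the members and 0.00371 over all probe sets, with the quartiles of the members at −0.12 and 0.20. Of the members 48 were above 0 and 42 below, or 46.7% below, against 49.3% of all probe sets. The array-wise median of the members ran from 6.91 to 7.19 in normal and from 7.14 to 7.37 in sex-reversed ovary, and these ranges overlap. In 72 members, or 80.0%, the whole 95% interval of the difference lay within a 2-fold change either way, against 78.0% of all probe sets. For the remaining 18 members the data do not bound the difference to 2-fold.

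**Figure D1:**
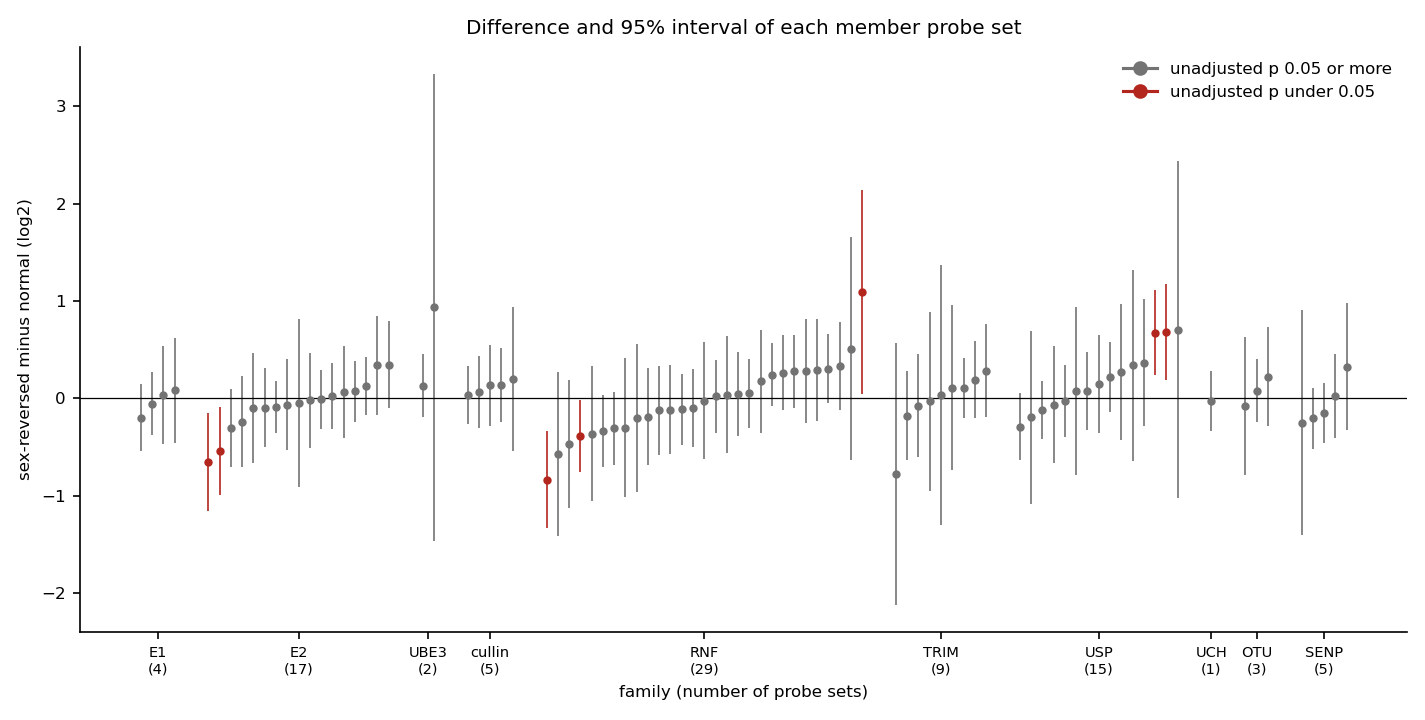
Difference between the means of sex-reversed and normal ovary (log2, vertical axis) for each of the 90 member probe sets, ordered within families along the horizontal axis, with 95% intervals from limma on 4 arrays per group. The 7 red points had an unadjusted p under 0.05, and the widest intervals belong to probe sets of ube3c.S and usp3.L.

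At the head of the cascade, the E1 genes had small differences. The ubiquitin E1 gene uba1 was measured on both homeologs. In normal replicates 1 to 4 uba1.S was at 9.35, 9.29, 9.06 and 9.12, and in sex-reversed replicates 1 to 4 at 8.78, 8.91, 9.07 and 9.25. The groups overlapped, and the difference was −0.20 ± 0.15 (log2, SE; adjusted p = 0.853 in limma). For uba1.L the difference was 0.03 ± 0.22. The SUMO E1 subunit gene uba2.L differed by −0.06 ± 0.14, with 8.78 to 9.13 in normal and 8.74 to 9.10 in sex-reversed ovary. The NEDD8 E1 subunit gene uba3.S differed by 0.08 ± 0.24.

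Among E2 genes, 11 of 17 probe sets (64.7%) had a lower mean in sex-reversed ovary, against 49.3% of all probe sets. The median difference was −0.05 (log2), and no family was tested against the background. The 2 E2 probe sets under an unadjusted p of 0.05 in limma were on the lower side, as were 3.17% of all probe sets. The first was ube2k.S, whose product builds lysine-48-linked chains. It measured 5.90, 6.23, 6.18 and 5.43 in normal replicates 1 to 4 and 5.10, 5.67, 5.30 and 5.06 in sex-reversed replicates 1 to 4. Normal replicate 4 lay below sex-reversed replicate 2, so the groups overlapped by 1 array. The difference was −0.65 ± 0.22 (log2, SE; unadjusted p = 0.0167, adjusted p = 0.733 in limma). It was −0.40 (unadjusted p = 0.202 in limma) with sex-reversed replicate 4 counted as normal, as the source name of that array has it.

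The second was ube2g1.S, a relative of yeast Ubc7, an E2 of endoplasmic reticulum protein degradation. It measured 9.21, 9.46, 9.04 and 9.14 in normal replicates 1 to 4, and 9.12, 8.26, 8.60 and 8.70 in the sex-reversed ones. Sex-reversed replicate 1 lay inside the normal range, and the other 3 lay below it. The difference was −0.54 ± 0.20 (log2, SE; unadjusted p = 0.0240, adjusted p = 0.738 in limma). The gene ube2g1.S gave −0.45 (unadjusted p = 0.0884 in limma) with sex-reversed replicate 4 counted as normal. Its paralog ube2g2.L, which acts in the same degradation route, ranged from 9.83 to 10.40 in normal and from 9.75 to 10.09 in sex-reversed ovary, a difference of −0.31 ± 0.18.

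Several E2 genes varied little between any arrays. The E2 of NEDD8, ube2m.L, lay between 11.26 and 11.64 on all 8 arrays. The gene ube2l3.S, whose product serves HECT and RBR ligases, lay between 10.24 and 10.46 and had a pooled within-group SD of 0.0562. The gene ube2s.S, the chain-extending E2 of the anaphase promoting complex, lay between 9.25 and 9.58 and differed by −0.01 ± 0.13 (log2, SE). The Rad6-type genes ube2a.L and ube2b.S, which act at stalled replication and on histone H2B, differed by 0.34 ± 0.23 and 0.34 ± 0.20. The Fanconi anaemia pathway gene ube2t.S was 1 of 8 members below the lower quartile of every array. Whether such dim probe sets were above background was not tested.

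The RING finger genes named rnf made up the largest family, with 29 probe sets, 14 above 0 and 15 below. Their products are mostly E3 ligases. The clearest of them was rnf103, also called kf1, a membrane-bound ligase of the endoplasmic reticulum. In normal replicates 1 to 4 rnf103.L measured 6.83, 6.81, 6.27 and 7.04, and in sex-reversed replicates 1 to 4 it measured 5.44, 5.96, 6.06 and 6.13. Every sex-reversed array lay below every normal one, and the narrowest distance was between normal replicate 3 and sex-reversed replicate 4. The difference was −0.84 ± 0.22 (log2, SE; unadjusted p = 0.00424, adjusted p = 0.639 in limma).

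The homeolog rnf103.S, on a probe set of its own, measured 7.37, 7.05, 7.26 and 7.56 in normal and 6.73, 6.86, 7.17 and 6.93 in sex-reversed ovary. It was also lower on average, but sex-reversed replicate 3 lay above normal replicate 2. The difference was −0.39 ± 0.16 (log2, SE; unadjusted p = 0.0422, adjusted p = 0.779 in limma). With each array left out in turn, rnf103.L gave −0.99 to −0.69 and rnf103.S −0.47 to −0.30. They gave −0.79 and −0.31 with sex-reversed replicate 4 counted as normal (unadjusted p = 0.0125 and 0.129 in limma).

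On the higher side stood rnf167.L, a ligase of endosomes and lysosomes. Its values were 7.10, 7.28, 5.99 and 6.24 in normal replicates 1 to 4, and 8.14, 7.95, 8.43 and 6.46 in sex-reversed replicates 1 to 4. Sex-reversed replicates 1 to 3 lay above all normal arrays, and sex-reversed replicate 4 lay among them. The difference was 1.09 ± 0.46 (log2, SE; unadjusted p = 0.0430, adjusted p = 0.779 in limma). It was 1.56 with sex-reversed replicate 4 counted as normal (unadjusted p = 0.000756, adjusted p = 0.563 in limma).

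**Figure D2:**
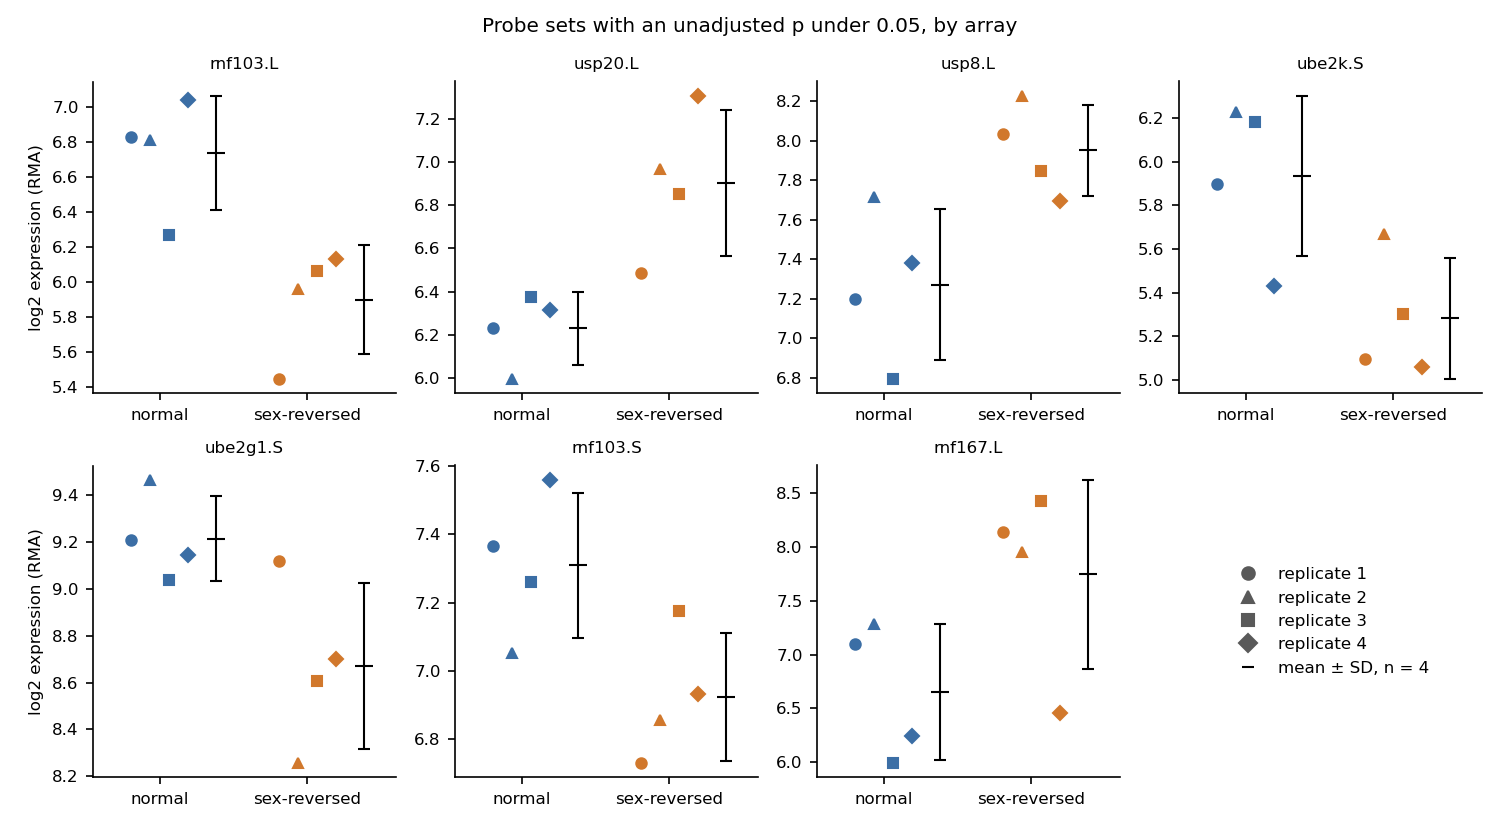
Log2 expression (vertical axis, own scale per panel) of the 7 member probe sets with an unadjusted p under 0.05 in limma, in normal (blue) and sex-reversed (orange) ovary, with 1 point per array and bars for the mean ± SD of 4 arrays. The 2 groups separate without overlap for rnf103.L and usp20.L, and overlap by at least 1 array for the other 5.

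Sex-reversed replicate 1 was far below the other arrays in a run of RING genes. The value of rnf13.L, a ligase of endosomal membranes, was 6.91 on that array and 8.06 to 8.36 on the other 7. For rnf145.L, a sterol-sensing domain ligase, it was 7.10 against 8.01 to 8.72. The related ligase gene rnf139.L, known as trc8, was at 7.51 against 8.07 to 8.98, and 1 of 3 rnf10.S probe sets was at 7.33 against 8.65 to 9.21. In all, 6 members (6.67%) lay over 1 log2 below the median of the other arrays on sex-reversed replicate 1, against 2.93% of all probe sets on that array. On normal replicate 3 the count was 7 members (7.78%), against 3.14% of all probe sets, among them usp7.S, rnf222.L and trim28.L. These genes were chosen after their values were seen.

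Several other RING genes have well-known roles. The gene rnf2.L, which encodes the ligase Ring1b of Polycomb repressive complex 1, differed by 0.02 ± 0.17 (log2, SE). The gene rnf20.L, a ligase for histone H2B, differed by 0.31 ± 0.15, and rnf4.L, which ubiquitinates SUMO-modified proteins, by 0.24 ± 0.14. The gene rnf7.L encodes Rbx2, a RING subunit of cullin ligases, and differed by −0.33 ± 0.16. The endoplasmic reticulum ligase genes rnf5.L and rnf185.S differed by 0.04 ± 0.26 and −0.12 ± 0.20. None of these reached an unadjusted p of 0.05 in limma.

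Cullins are the scaffolds of the largest family of multi-subunit ligases. All 5 cullin probe sets had means above normal in sex-reversed ovary, by 0.04 to 0.20 (log2), and none reached an unadjusted p of 0.05. Of all probe sets 49.3% had a lower mean. The gene cul3.S, the scaffold for BTB-domain adaptors, measured 9.80, 10.03, 9.70 and 9.74 in normal and 10.12, 9.63, 9.84 and 10.21 in sex-reversed ovary. The groups overlapped, and the difference was 0.14 ± 0.17 (SE). The gene cul1.L, the scaffold of SCF ligases, differed by 0.07 ± 0.16, and cul4b.S by 0.04 ± 0.13. The homeolog cul1.S was dim, at 2.42 to 3.02 on all arrays, and gave 0.14 ± 0.18. With sex-reversed replicate 4 counted as normal, cul3.S and cul1.S gave −0.03 and −0.04.

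The TRIM genes, most of which encode RING ligases with a B-box and a coiled coil, had 5 of 9 probe sets above 0. Their median difference was 0.03 (log2). The neural and cytoskeletal ligase gene trim3.S measured 7.14, 6.39, 6.81 and 7.22 in normal replicates 1 to 4. In the sex-reversed replicates it measured 4.79, 5.09, 7.22 and 7.32. Sex-reversed replicates 1 and 2 were thus more than 1 log2 below all other arrays, and the other 2 were at the top of the normal range. The lowest 4 arrays were normal replicates 2 and 3 and sex-reversed replicates 1 and 2, which form 1 of the array sets described above. The difference was −0.78 ± 0.59 (SE; adjusted p = 0.853 in limma), and it ran from −1.19 to −0.34 with each array left out in turn. With the array set as a block it was −0.78 ± 0.34 (unadjusted p = 0.0531, adjusted p = 0.629 in limma). That is description only, since the sets were drawn from the measured values. The gene trim8.L also split by set, at 6.21 to 6.78 on the same set and 5.12 to 6.16 on the other. The epithelial gene trim29.L differed by 0.28 ± 0.21.

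The maternal gene trim36.L encodes a ligase needed in Xenopus eggs for the microtubule array that sets the dorsal axis. It measured 3.71, 5.56, 3.35 and 5.18 in normal and 4.38, 3.39, 5.51 and 4.65 in sex-reversed ovary. The arrays of both groups spread over about the same range, and the difference was 0.03 ± 0.59 (log2, SE).

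The HECT ligase gene ube3c.S was the only member of its family, with 2 probe sets. One of them had 2 levels. Normal replicates 1 to 4 gave 8.93, 5.22, 8.40 and 5.24, and sex-reversed replicates 1 to 4 gave 8.74, 8.58, 5.53 and 8.68. Normal replicates 2 and 4 and sex-reversed replicate 3 were low, and no array lay between 5.53 and 8.40. The other probe set of ube3c.S lay between 6.09 and 6.54 on all arrays and had no such levels. Their differences between groups were 0.93 ± 1.06 and 0.13 ± 0.14 (log2, SE).

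Among deubiquitinases of the USP family, 10 of 15 probe sets had a mean above normal and the median difference was 0.14 (log2). That left 33.3% with a lower mean, against 49.3% of all probe sets. The 2 under an unadjusted p of 0.05 in limma were higher in sex-reversed ovary, as were 3.21% of all probe sets. The gene usp20.L encodes a deubiquitinase that binds the von Hippel-Lindau protein and acts on membrane receptors. In normal replicates 1 to 4 it measured 6.23, 5.99, 6.37 and 6.32, and in sex-reversed replicates 1 to 4 it measured 6.49, 6.97, 6.85 and 7.31. All sex-reversed arrays were above all normal ones. The difference was 0.67 ± 0.19 (SE; unadjusted p = 0.00698, adjusted p = 0.667 in limma). With sex-reversed replicate 4, the highest array, counted as normal, it was 0.32 (unadjusted p = 0.29 in limma).

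The gene usp8.L encodes a deubiquitinase that works on endosomes and spares receptors from degradation. On its brighter probe set it measured 7.20, 7.71, 6.79 and 7.38 in normal and 8.04, 8.23, 7.85 and 7.70 in sex-reversed ovary. Normal replicate 2 lay just above the lowest sex-reversed array, and the other 7 arrays were in order of group. The difference was 0.68 ± 0.22 (log2, SE; unadjusted p = 0.0124, adjusted p = 0.727 in limma). It stayed at 0.68 with sex-reversed replicate 4 counted as normal (unadjusted p = 0.0169 in limma). The second probe set of usp8.L ranged from 3.94 to 5.97 in normal and from 4.79 to 5.71 in sex-reversed ovary, with a difference of 0.34 ± 0.43.

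The histone H2A deubiquitinase gene usp3.L varied with the array sets described above. Its first probe set measured 5.65, 3.75, 3.64 and 5.66 in normal replicates 1 to 4 and 4.08, 4.22, 6.67 and 6.56 in sex-reversed replicates 1 to 4. The 4 arrays at 5.65 or more were exactly normal replicates 1 and 4 and sex-reversed replicates 3 and 4, which form 1 of the sets. Within each set the sex-reversed arrays were above the normal ones. Over all arrays the difference was 0.71 ± 0.76 (log2, SE; unadjusted p = 0.379 in limma), and with the array set as a block the unadjusted p was 0.00164 and the adjusted p 0.42. The second probe set of usp3.L gave 7.03, 6.58, 6.72 and 7.71 in normal and 6.19, 6.80, 7.64 and 7.71 in sex-reversed ovary, a difference of 0.08 ± 0.38. It, too, had its 4 highest values on that set, and with the array set as a block its unadjusted p was 0.736 in limma. The sets were drawn from the measured values themselves, so the blocked p-values are description only.

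Other USP genes had small differences. The gene usp14.S, whose product sits on the proteasome, differed by −0.03 ± 0.16 (log2, SE), and usp5.S, which disassembles free ubiquitin chains, by 0.22 ± 0.16 and 0.14 ± 0.22 on its probe sets. The gene usp7.S, which acts on Mdm2 and p53, ranged from 6.12 to 7.81 in normal and from 6.41 to 7.53 in sex-reversed ovary. The mitotic checkpoint deubiquitinase gene usp44 gave 0.37 ± 0.29 on its L and −0.07 ± 0.26 on its S homeolog. The L probe set was dim, at 3.14 to 4.50. The gene usp38.L lay between 10.24 and 10.62 on all arrays.

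The other deubiquitinase families had few members. The ubiquitin hydrolase gene uchl3.L measured 11.37, 11.38, 11.30 and 11.67 in normal and 11.32, 11.49, 11.42 and 11.39 in sex-reversed ovary, a difference of −0.03 ± 0.13 (log2, SE). Of the OTU genes, otud5.S differed by 0.22 ± 0.22, otub2.S by 0.08 ± 0.14 and otub1.L, whose product also restrains E2 enzymes, by −0.08 ± 0.31. The dim otub2.S, at 3.05 to 3.52, lay below the lower quartile of every array. Sex-reversed replicate 1 had otud5.S at 4.61 and the other arrays at 3.60 to 4.03.

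SENP enzymes mature SUMO and remove it from proteins. The gene senp5.L gave −0.16 ± 0.14 and −0.21 ± 0.14 (log2, SE) on its 2 probe sets, which share a target sequence name and may share probes. The gene senp1.S measured 5.75, 5.87, 6.08 and 5.95 in normal and 6.20, 6.64, 5.88 and 3.94 in sex-reversed ovary. Sex-reversed replicate 4 stood below all others, and the difference of −0.25 ± 0.51 turned to 0.33 without it. The nucleolar SUMO protease gene senp3.L differed by 0.33 ± 0.29. No SENP probe set reached an unadjusted p of 0.05 in limma.

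**Figure D3:**
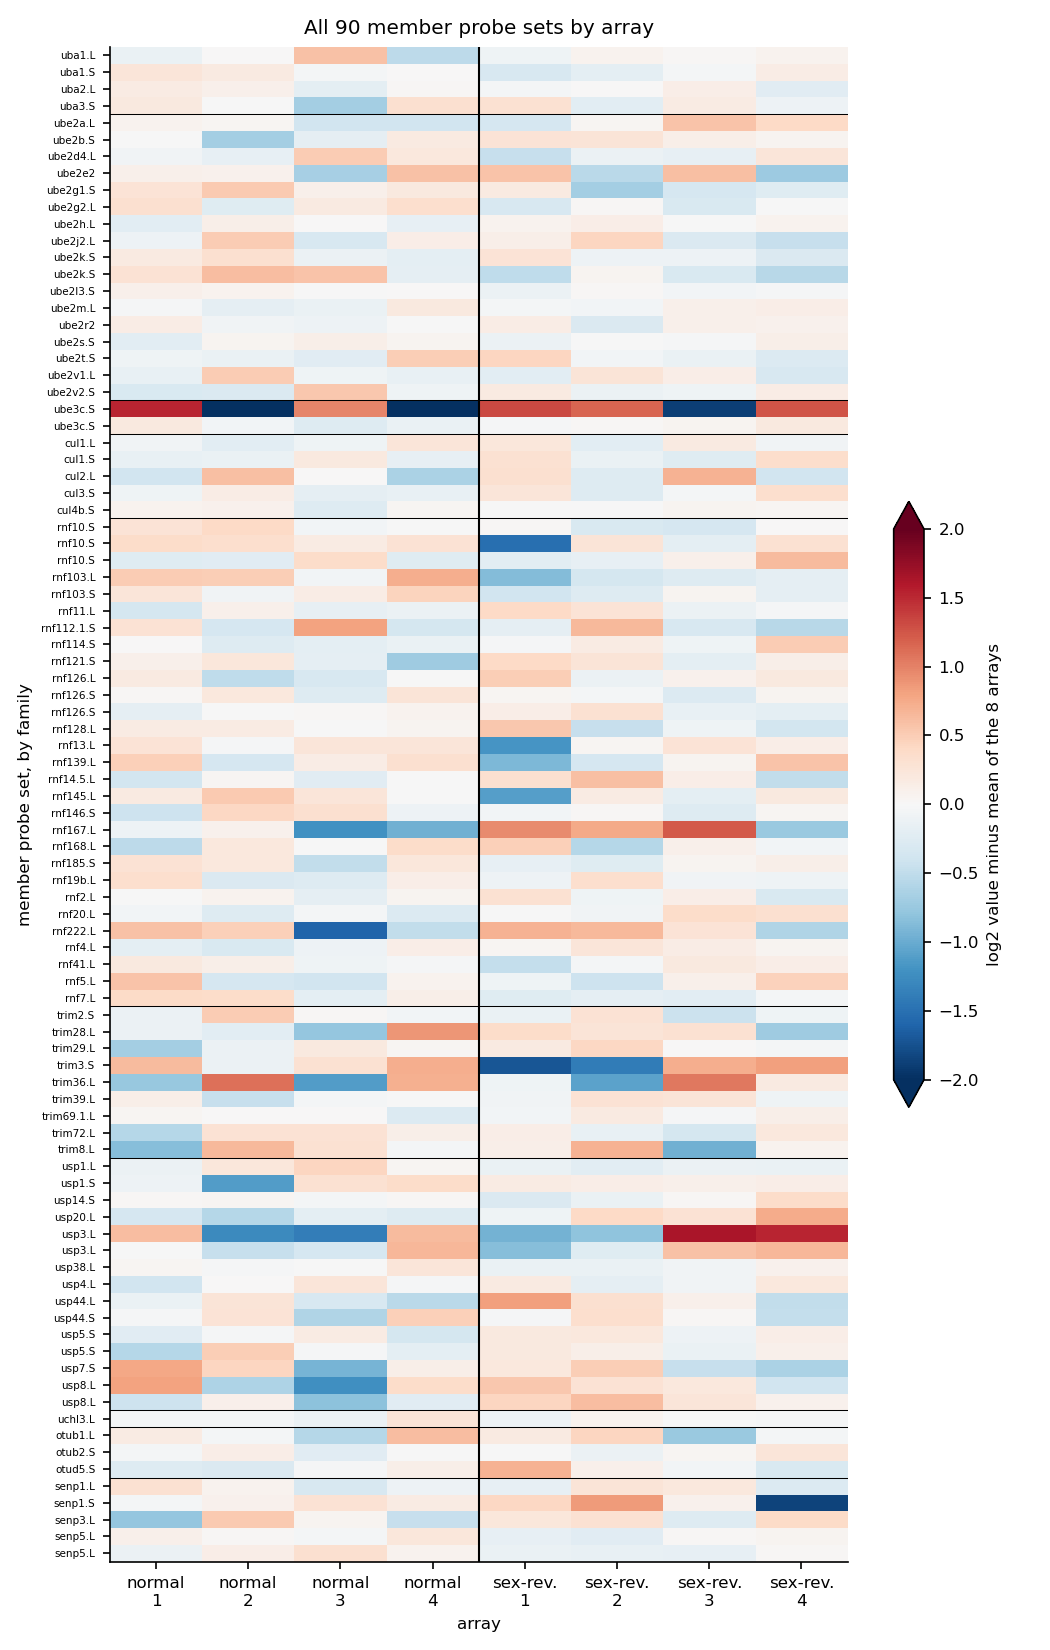
All 90 member probe sets (rows, grouped by family in the order E1, E2, UBE3, cullin, RNF, TRIM, USP, UCH, OTU and SENP) on the 8 arrays (columns), coloured by log2 value minus that probe set's mean over the arrays, from −2 to 2. Single dark cells, such as senp1.S on sex-reversed replicate 4, and the split rows of ube3c.S and usp3.L stand out, and few rows change colour at the line between the groups.

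Members differed widely in how much they varied within groups. The median pooled within-group SD was 0.29 (log2) over members and 0.31 over all probe sets. It exceeded 0.5 in 17 members, or 18.9%, and in 20.2% of all probe sets. The 10 widest were probe sets of ube3c.S (1.79), usp3.L (1.28), trim3.S (0.99), trim36.L (0.99), senp1.S (0.85), rnf222.L (0.84), rnf167.L (0.77), usp8.L (0.71), trim8.L (0.66) and usp7.S (0.64). A gap of at least 1.5 log2 that took up at least 0.5 of the range was present in 2 members, ube3c.S and senp1.S, or 2.22%, against 3.59% of all probe sets. The gap of usp3.L was 1.43, just short of that limit. The laevis probes may bind transcripts of the muelleri parent less well, and how far that enters any of these values was not tested.

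**Figure D4:**
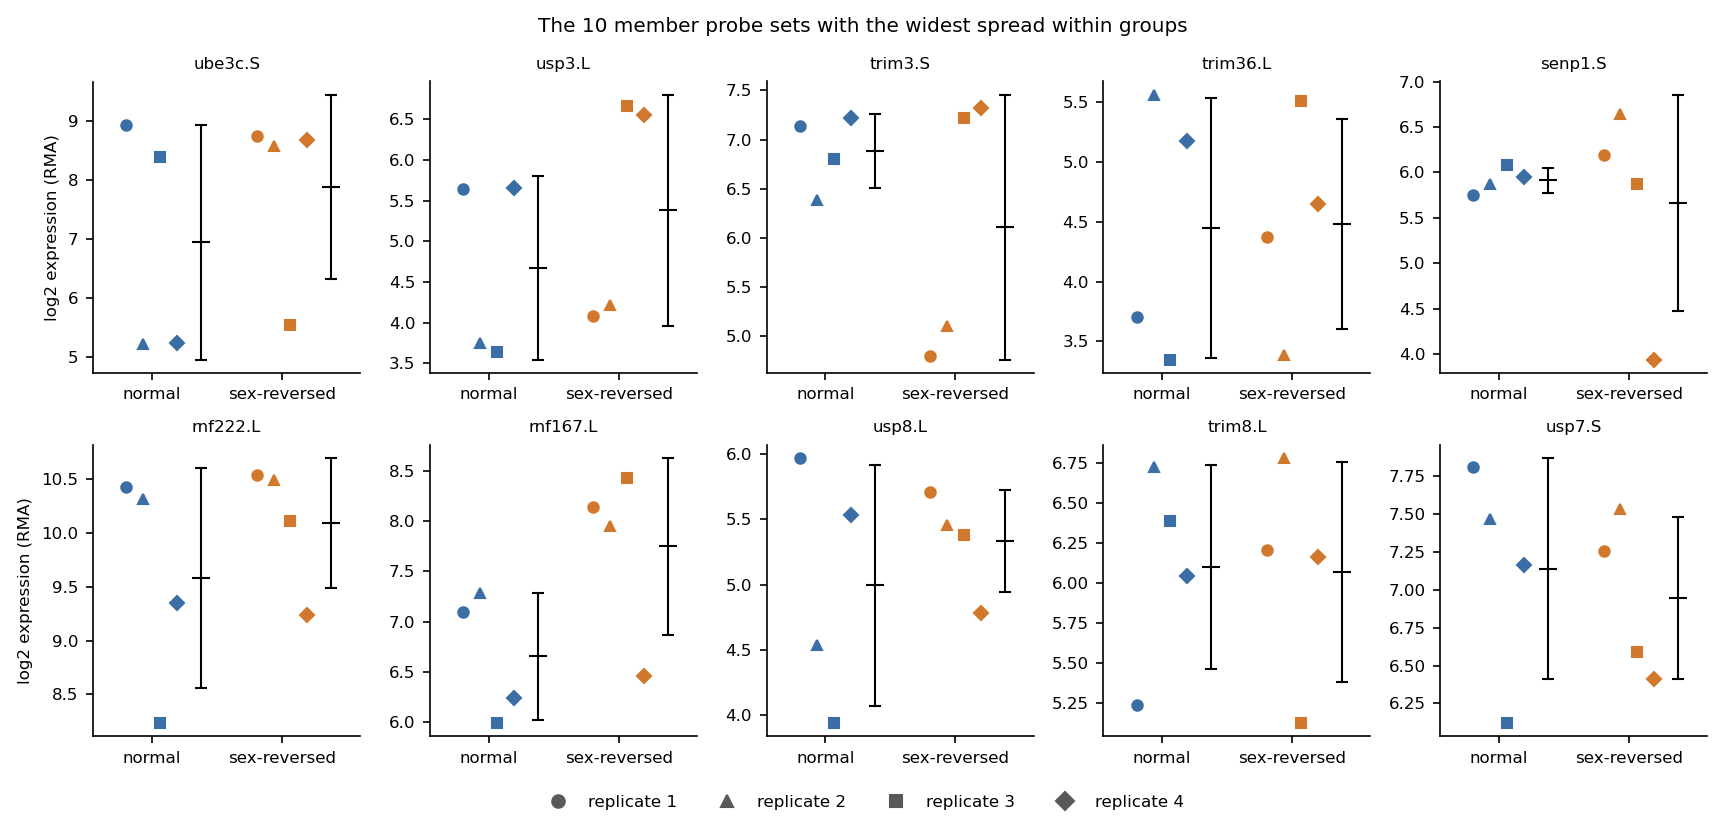
Log2 expression (vertical axis, own scale per panel) of the 10 member probe sets with the largest pooled SD within groups, 1 point per array, with bars for the mean ± SD of 4 arrays. High and low arrays occur in both groups for ube3c.S, usp3.L and trim36.L, while for senp1.S only sex-reversed replicate 4 is low. For trim3.S sex-reversed replicates 1 and 2, which share an array set, are far below the rest.

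Of 74 gene names without the ending, 7 had both homeologs among the members, and they gave 8 pairs of probe sets. The differences had the same sign in 3 pairs, among them rnf103 with −0.84 for L and −0.39 for S. In each array the L value minus the S value was taken and compared between groups by a two-sided exact permutation test, whose smallest possible p is 0.0286. For rnf103 the gap shifted by −0.45 (exact p = 0.0857, adjusted p = 0.304 over the 8 pairs). For usp1 it shifted by −0.56, with −0.29 for L and 0.27 for S, and exact p = 0.114. The usp1.S difference was −0.061 without normal replicate 2, where usp1.S was lowest at 8.72. The probe set of usp1.L was dim, at 3.53 to 4.17, near the lower quartile of the arrays. For rnf126 and its brighter S probe set it shifted by 0.44 (exact p = 0.114). The remaining 5 pairs had exact p values of 0.371 or more. No pair was shown to differ between homeologs, and with 8 pairs a single one at the smallest p could not have passed the adjustment.

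A gene measured by more than 1 probe set gives a check within the same symbol, and 8 symbols allowed 10 such pairs. The sign was shared in 7 of them. The probe sets of ube2k.S gave −0.65 and −0.10 (log2), and the second, at 2.72 to 3.32, lay below the lower quartile of every array. Those of rnf10.S gave −0.57, −0.31 and 0.17. The first and the last of these rnf10.S values lay −0.75 apart (exact permutation test, two-sided, p = 0.0571, or 0.428 when adjusted over the 10 pairs). The ube3c.S pair lay 0.81 apart, with an exact p of 0.6. Suffixes of the probe set names mark possible cross-binding. Of the members 83 had the plain ending, 4 the ending _a_at for several transcripts of a gene, 1 the ending _s_at and 2 the ending _x_at, whose probes may bind other genes.

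**Figure D5:**
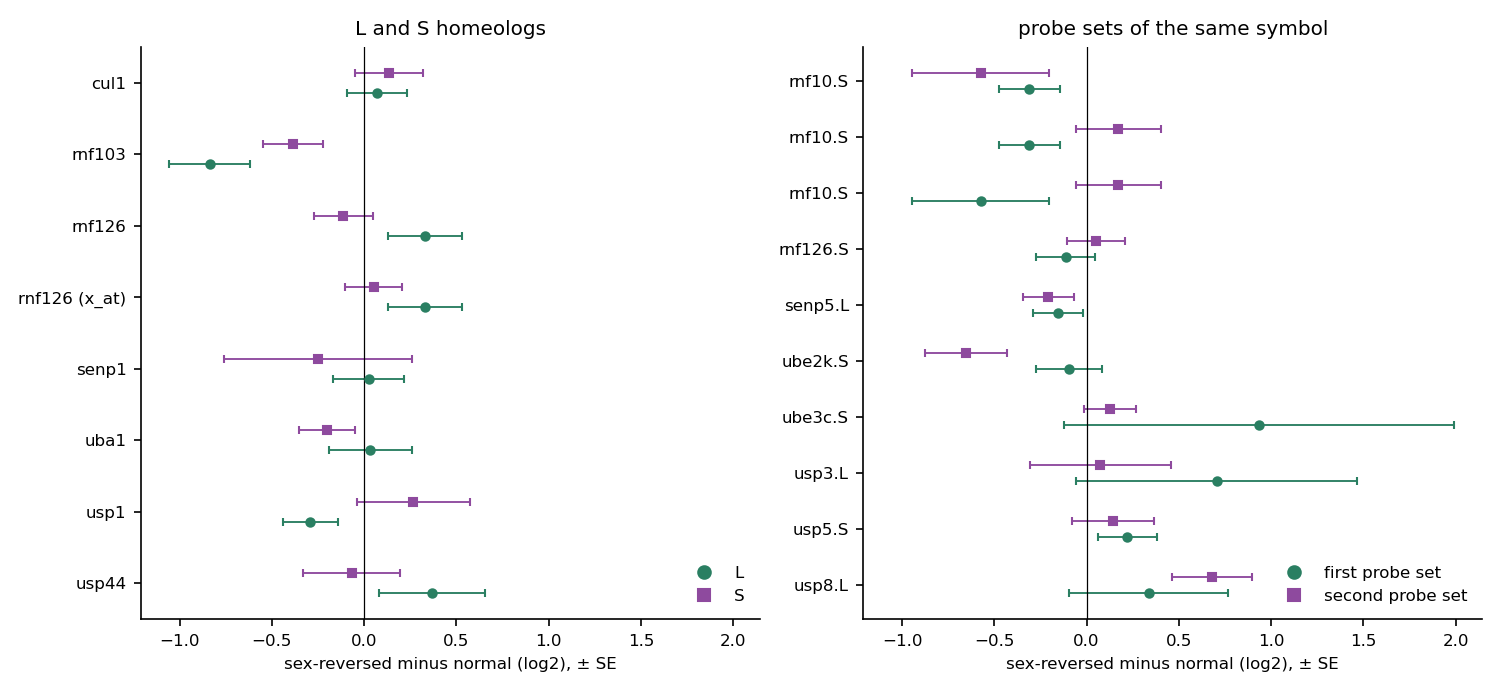
Differences between sex-reversed and normal ovary (log2, horizontal axis, ± SE) for the 8 pairs of L and S homeologs (left) and the 10 pairs of probe sets of the same symbol (right, where rnf10.S has 3 pairs). Both homeologs of rnf103 lie below 0, while those of usp1 lie on opposite sides, which does not hold without normal replicate 2.

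A list of further genes of the pathway, which does not hold all of its genes, was measured on 134 probe sets for 113 symbols. Its median difference was −0.01 (log2). At an unadjusted p under 0.05 in limma 5 were higher and 2 lower, or 5.22%, against 6.38% of all probe sets, and none passed at an adjusted one. The groups did not overlap in 4, or 2.99%, against 4.06% of all probe sets. Both shares lay below the background, and the genes behind them are named as values only. The deubiquitinase gene stambp.S, also called amsh, which like usp8 acts on endosomes, measured 5.43, 5.15, 5.16 and 5.40 in normal and 5.64, 5.83, 6.02 and 6.10 in sex-reversed ovary. All sex-reversed arrays were higher, and the difference was 0.61 ± 0.15 (SE; unadjusted p = 0.00346, adjusted p = 0.639 in limma). With sex-reversed replicate 4, the highest array, counted as normal, it was 0.38 (unadjusted p = 0.138).

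Higher means at an unadjusted p under 0.05 were also given by the HECT ligase gene hace1.L (0.87 ± 0.33, log2, SE), the F-box gene fbxo46.L (0.47 ± 0.20), the survivin-like gene birc5l.L (0.41 ± 0.16) and the SUMO ligase gene pias1.L (0.38 ± 0.15). In the opposite direction, the homeolog birc5l.S gave −0.38 ± 0.21 and another probe set of pias1.L −0.54 ± 0.43. Lower means at an unadjusted p under 0.05 in limma were given by faf1.S, a cofactor of the Vcp segregase (−0.65 ± 0.28), and the F-box gene fbxw9.S (−0.49 ± 0.21). With sex-reversed replicate 4 counted as normal, the unadjusted p in limma was 0.247 for hace1.L (0.52) and 0.241 for fbxw9.S (−0.32). It was 0.216 for fbxo46.L (0.32) and 0.226 for faf1.S (−0.435). For birc5l.L it was 0.00349 (0.52, adjusted p = 0.613), and for the higher pias1.L probe set 0.0755 (0.34). The hace1.L difference was 0.58 without normal replicate 2. Without overlap but with a larger unadjusted p stood hectd3.L (0.28 ± 0.13), mib1.L, a ligase for Notch ligands (−0.20 ± 0.12), and siah1.L (−0.81 ± 0.42). Sex-reversed replicate 4 had siah1.L at 8.80 and the other sex-reversed arrays at 10.63 to 10.78, and the difference was −0.33 without it.

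For the anaphase promoting complex and its activators 12 of 15 probe sets, for 13 symbols, had a lower mean in sex-reversed ovary. That is 80.0%, against 49.3% of all probe sets. The median was −0.10 (log2), cdc20.L among the lower ones was at −0.000376, and none reached an unadjusted p of 0.05. The modifier genes measured, nedd8.L and ufm1.L, gave −0.22 ± 0.23 and −0.39 ± 0.43 (SE), with intervals that include 0.

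Of 38 marker probe sets of oocytes and other cells none passed an adjusted p of 0.05 in limma, the lowest adjusted p being 0.727, and 6 (15.8%) had an unadjusted p under 0.05, against 6.38% of all probe sets. Of 7 probe sets for smooth muscle and stroma 6 had a lower mean in sex-reversed ovary, and col3a1.S (−1.44 ± 0.48, log2, SE), col1a1.S (−0.98 ± 0.43) and tagln.L (−0.98 ± 0.43) had an unadjusted p under 0.05, with a lowest adjusted p of 0.733. A second col3a1.S probe set gave −0.08 ± 0.40 and myh11.S 0.47. The summed log2 value of this list ran from 39.8 to 43.6 in normal and from 35.7 to 43.1 in sex-reversed ovary. Leukocyte markers differed in opposite directions, with cd247.S at 0.64 without overlap (unadjusted p = 0.0134 in limma), ptprc.L at 0.29 and lcp1.S at −0.45 (unadjusted p = 0.0203), and the summed value of that list ran from 10.2 to 10.7 in normal and from 10.4 to 11.7 in sex-reversed ovary. The Sertoli marker sox9.S differed by −0.71 (unadjusted p = 0.0579, adjusted p = 0.787 in limma). The other Sertoli probe sets, dhh.S and dhh.L, gave 0.09 and 0.07, and both lay below the lower quartile of every array. All 3 granulosa and follicle probe sets had lower means, fst.L by −0.27 and fshr.L by −0.20 and −0.05, none under an unadjusted p of 0.05. Of 5 erythrocyte probe sets 3 were lower and 2 higher, with hbg2.L at −0.40 (unadjusted p = 0.0533 in limma). The part of these cells in the values of rnf103, ube2k.S, ube2g1.S, usp8.L, usp20.L and rnf167.L was not tested.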

How the data were processed

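RNA of 8 ovaries was labelled with biotin from total RNA and hybridised to Affymetrix Xenopus laevis arrays, per the labels' protocols. The authors deposited 1 log2 expression value for each probe set and array, obtained with RMA, per the submitters' processing notes. By its design RMA gives the probe intensities of all arrays the same distribution, which hides any shift common to most genes. The base is that of RMA output, since the labels do not state it. No scanner files were used, so detection was not tested, and the number of arrays limits the precision. The replicates are labelled biological, and nothing more is said of the animals' relatedness.

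Gene symbols were those of the platform annotation, some of which may be outdated. Among 11485 probe sets 6798 had 1 symbol, 110 several and 4577 none listed. For each probe set the 2 groups were compared by lmFit and eBayes of limma 3.58.1 in R 4.3.3, two-sided and with no covariate, and p-values were Benjamini-Hochberg adjusted over all of them. The fit was tested on simulated data. Figures used Python 3.11.15 and matplotlib 3.10.9. Alternatives were the replicate number or the array set as a block, weights for arrays, a trended robust prior, quantile normalization, centring, removal of dim probe sets, a single value for each gene, other thresholds, replicate 4 of the sex-reversed group counted as normal, and each array left out.

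Members and gene lists were chosen with earlier results of these data known. Named members were those without overlap, the 2 of smallest unadjusted p per family with their homeologs and further probe sets, the 10 widest and 10 brightest, those with 2 levels, and, outside that rule, all homeolog and same-symbol pairs and members named for their known role.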

Additional observations from a re-analysis of the deposited data

Results flagged for a closer look

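Within a group of 4 arrays, 1 array stood apart from the other 3 in 7 of the 118 groups looked at. In each of these 7, its gap to the nearest array, as a share of the group's range, was above Dixon's 95% critical value. A rate of 1 in 20 would give 5.9 groups. That rate does not hold here, since some of the probe sets were named for their measured values, so the counts cannot be compared. The rule is relative to the range, and the gaps of senp5.L and mib1.L were small in log2. Only 59 of the probe sets named in the text were looked at, and rnf13.L was not among them. Sex-reversed replicate 3 had ube3c.S at 5.53, with the others at 8.58 to 8.74. Sex-reversed replicate 4 had siah1.L at 8.80, with the others at 10.6 to 10.8, and a senp5.L probe set at 8.61, with the others at 8.42 to 8.45. Normal replicate 3 had a rnf10.S probe set at 8.18, with the others at 7.57 to 7.59, and the dim cul1.S at 2.86, with the others at 2.5 to 2.53. Sex-reversed replicate 2 had fbxw9.S at 4.34, with the others at 3.67 to 3.77. Sex-reversed replicate 3 had mib1.L at 8.78, with the others at 8.96 to 8.97.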

How the results depend on the processing

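No member passed an adjusted p of 0.05 in limma under any alternative run, nor an adjusted p of 0.25, and leaving out each array gave 0 to 0. At an unadjusted p under 0.01 there were 2 members, against 1.36% of all probe sets. Leaving out 1 array gave 4 to 8 members at an unadjusted p under 0.05, against 5.11% to 6.93% of all probe sets, and 4 to 7 without overlap, against 6.36% to 8.26%, since fewer arrays overlap less often. With sex-reversed replicate 4 counted as normal 6 members did not overlap, against 5.29% of all probe sets. The median difference of the members ran from −0.03 to 0.06 (log2) without 1 array. Of 59 named probe sets 16 changed sign without some array and 39 moved by more than 1.5 times, but none of these was called.

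With sex-reversed replicate 4 counted as normal the sign turned for cul1.S (−0.0414), cul3.S (−0.0285), otub2.S (−0.0441), rnf10.S (−0.15, the probe set that gave 0.17), senp1.S (0.72), siah1.L (0.12), trim36.L (−0.0631), uba2.L (0.0607), ube2k.S (0.0494, dim probe set), usp3.L (−0.0621 and −0.27), usp44.S (0.18) and usp7.S (0.13). With array weights it turned for trim36.L (−0.11) and usp3.L (−0.07, second probe set). Counting sex-reversed replicate 4 as normal brought trim3.S (−1.27) and usp44.L (0.66) under an unadjusted p of 0.05 in limma, at 0.0356 and 0.0214. It brought usp20.L, the brighter ube2k.S probe set, rnf103.S and ube2g1.S above that limit. The causes were not tested. Without 1 array the values ran from −0.13 to 0.01 for uba2.L, −0.14 to 0.23 for uba1.L, −0.0763 to 0.13 for senp1.L and −0.53 to 0.0286 for usp7.S. They ran from −0.18 to 0.045 for rnf41.L, −0.0719 to 0.0496 for uchl3.L, −0.28 to 0.0812 for usp44.S and −0.061 to 0.43 for usp1.S. For trim36.L they ran from −0.33 to 0.41, for senp1.S from −0.58 to 0.33 and for trim8.L from −0.32 to 0.28. Some symbols had a change of sign on only 1 of their probe sets. These were the second of usp3.L (−0.13 to 0.37), the dimmer of usp8.L (−0.0142 to 0.66) and the dimmer of rnf126.S (−0.0397 to 0.12). They were also the rnf10.S one that gave 0.17 (−0.00829 to 0.32) and the usp5.S one that gave 0.14 (−0.0202 to 0.33). The brighter usp8.L probe set, at 0.68 over all arrays, ran from 0.52 to 0.83 and kept its sign.

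Whether the replicate numbers pair the arrays is not known. Deviations of same-numbered arrays correlated at −0.195, 0.241, −0.193 and 0.174 over all probe sets, and 2 of 8 arrays correlated best with their own number. Same-numbered arrays share an array set for replicates 2 and 4 but not for 1 and 3, so these correlations cannot settle the pairing. With the replicate block 5 members had an unadjusted p under 0.05, against 5.77% of all probe sets, and 0 an adjusted one. With the array set as a block the counts were 8, against 7.91% of all probe sets, and 0.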
